A study of Mus musculus with 13 samples.

Results

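Neuronal RNA-binding proteins that control splicing, stability and translation of mRNA were followed in sympathetic ganglia of mice with and without a MYCN transgene. The 10 genes, Elavl2, Elavl3, Elavl4, Rbfox1, Rbfox3, Ptbp1, Ptbp2, Nova1, Msi1 and Msi2, were found by their symbol in the platform annotation of the array. They held 18 of the 30626 probes with a symbol and made up 10 of 21893 genes. All 10 genes, at each of their 18 probes, lay above background, the 95th percentile of 96 ERCC control probes, on all 13 arrays.

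The superior cervical ganglia and coeliac ganglia were taken from mice 2 weeks old, and their total RNA was measured on 1-colour Agilent arrays. The TH-MYCN+/+ group (n = 6) was homozygous for a transgene in which a tyrosine hydroxylase promoter drives human MYCN in sympathetic cells, a mouse model of neuroblastoma. The wild type group (n = 7) comprised littermates of the same age without it. The labels do not say whether an array holds 1 animal or a pool, so the spread behind the p-values may be partly technical.

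The Elavl proteins of neurons (Elavl2, Elavl3 and Elavl4, also called HuB, HuC and HuD) bind U-rich and AU-rich elements, stabilise their target mRNAs and promote neuronal exon choice. Rbfox proteins bind UGCAUG next to alternative exons, and Rbfox3 is the NeuN antigen used to mark mature neurons. Ptbp1 represses neuronal exons in progenitors and non-neuronal cells, including an exon whose skipping makes the Ptbp2 mRNA unstable. In the developing brain Ptbp1 gives way to Ptbp2 as neurons form. Nova1 is a neuronal splicing factor that binds clusters of UCAY. Msi1 and Msi2, the Musashi proteins, act in neural progenitors, where Msi1 represses translation of the Notch antagonist Numb.

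In TH-MYCN+/+ ganglia 4 genes rose, Elavl3 by 2.92-fold, Ptbp2 by 2.22-fold, Ptbp1 by 1.90-fold and Msi2 by 1.56-fold. Elavl4 and the probe that stands for Msi1 were called lower, and Elavl2, Rbfox1, Rbfox3 and Nova1 did not pass the test. A gene was called at an adjusted p under 0.05 in limma, with Benjamini-Hochberg adjustment over all genes and quantile-normalized log2 intensities. Of all genes tested 53.2% were called, 18.9% higher and 34.3% lower, so 6 calls among 10 genes is near the background. Elavl3 and Ptbp2 rose by over 1 on the log2 scale, as did 7.95% of all genes, while 15% of all genes were lower by as much. The median log2 fold change was 0.03 over the 10 genes and -0.15 over all genes.

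**Figure D1:**
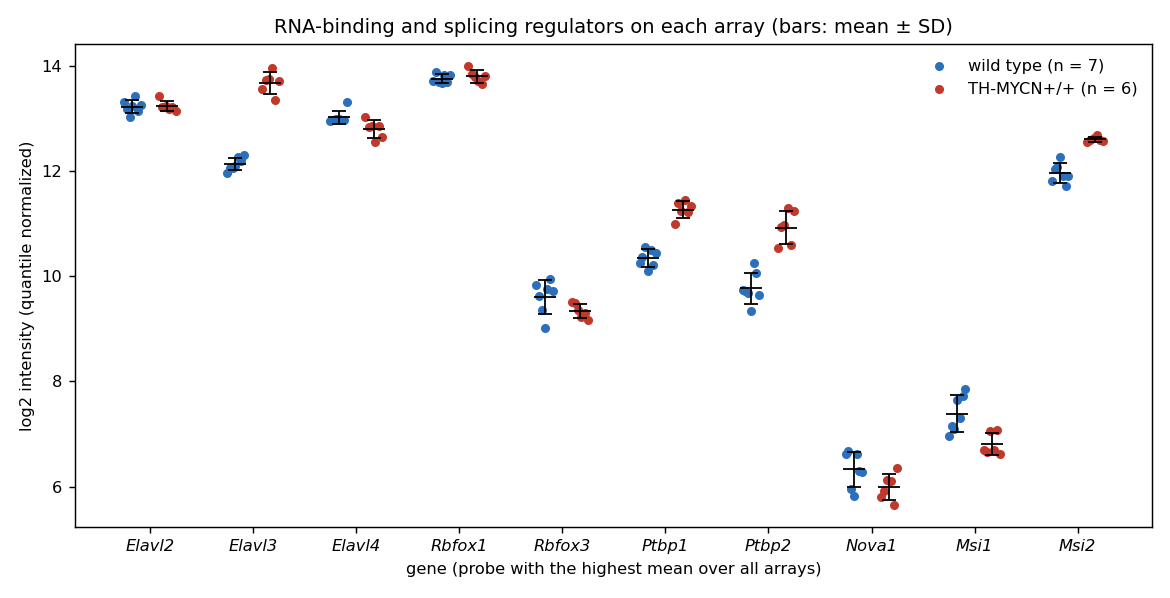
Quantile-normalized log2 intensity (vertical axis) of each gene (horizontal axis) on every array, with wild type in blue (n = 7), TH-MYCN+/+ in red (n = 6) and bars for mean and SD. The genotypes do not overlap for Elavl3, Ptbp1, Ptbp2 and Msi2, 4 of the 10 genes. The share over all genes is 35.4% in either direction and 12.3% with TH-MYCN+/+ higher. Heights of different genes are not comparable because each probe has its own brightness.

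The arrays carried markers of sympathetic neurons. Th and Dbh, enzymes of noradrenaline synthesis, lay above background on all 13 arrays. Markers of several cell types differed between genotypes. All 6 proliferation genes measured were called higher, and their summed level ran from 15.42 to 16.05 on the log2 scale in TH-MYCN+/+ against 11.96 to 12.46 in wild type. Of 8 sympathetic neuron markers 7 were called lower and 1 higher, with summed levels of 17.11 to 17.97 against 18.77 to 19.15. With spike-in scaling, a scaling of each array to added control RNA, 3 of the 8 were called lower and 1 higher. Of 8 pan-neuronal markers 6 were called lower and 1 higher, with summed levels of 17.83 to 18.26 against 18.69 to 18.89, and with spike-in scaling 1 was called lower and 1 higher. All 6 fibroblast markers were called lower (16.002 to 16.81 against 17.97 to 18.29), as were 5 of 6 markers of Schwann and satellite glia (13.71 to 14.47 against 14.96 to 15.74), of which 1 was called higher. With spike-in scaling these lower calls numbered 6 and 4. The glial gene called higher was Mbp (log2 fold change 0.33). Of its 3 probes 1 was called higher and 1 lower, with values down to -1.95. All 6 endothelial markers were called lower, and none with spike-in scaling. In whole tissue, fewer cells of a type and less RNA per cell cannot be told apart, and the part of these marker differences in the results was not tested.

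The promoters of the 4 genes that rose are shown because these genes were called higher under each of 5 scalings between arrays. Each window runs from 250 bases before to 50 bases after an annotated start (RefSeq, GRCm38.p6), 5′ to 3′ on the strand of the gene. Capitals mark CACGTG, the E-box that MYCN with its partner Max is known to bind. CACGTG reads the same on both strands.
Elavl3 promoter (chr9:22051974-22052273, minus strand): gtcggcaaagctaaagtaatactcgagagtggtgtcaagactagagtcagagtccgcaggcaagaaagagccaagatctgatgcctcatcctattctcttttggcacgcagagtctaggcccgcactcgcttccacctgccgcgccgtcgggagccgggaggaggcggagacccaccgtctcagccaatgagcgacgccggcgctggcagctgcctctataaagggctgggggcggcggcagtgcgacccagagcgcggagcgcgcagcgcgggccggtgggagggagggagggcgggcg
Ptbp1 promoter (chr10:79854182-79854481, plus strand): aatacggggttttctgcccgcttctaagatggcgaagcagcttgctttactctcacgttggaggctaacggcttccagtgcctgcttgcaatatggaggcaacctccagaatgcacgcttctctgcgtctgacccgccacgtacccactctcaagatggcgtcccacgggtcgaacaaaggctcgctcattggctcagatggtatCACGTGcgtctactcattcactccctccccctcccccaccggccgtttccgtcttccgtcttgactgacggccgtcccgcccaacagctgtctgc
Ptbp2 promoter (chr3:119783339-119783638, minus strand): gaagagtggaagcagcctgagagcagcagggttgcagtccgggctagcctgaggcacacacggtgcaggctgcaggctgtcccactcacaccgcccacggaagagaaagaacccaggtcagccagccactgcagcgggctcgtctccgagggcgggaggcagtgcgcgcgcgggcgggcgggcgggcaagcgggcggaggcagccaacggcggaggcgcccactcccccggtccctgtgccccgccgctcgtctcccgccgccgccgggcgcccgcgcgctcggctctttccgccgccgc
Msi2 promoter (chr11:88718228-88718527, minus strand): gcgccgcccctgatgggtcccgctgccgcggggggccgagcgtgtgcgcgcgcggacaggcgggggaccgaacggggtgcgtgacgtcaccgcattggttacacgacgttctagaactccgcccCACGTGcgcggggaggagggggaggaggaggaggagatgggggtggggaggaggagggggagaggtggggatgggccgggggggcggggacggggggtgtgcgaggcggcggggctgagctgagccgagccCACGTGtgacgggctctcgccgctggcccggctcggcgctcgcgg

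The letters CACGTG stood in the windows of Ptbp1 and Msi2 and in no window of the other 7 genes with an entry. Msi1 has no entry. In Ptbp1 the site began 45 bases before the start. Msi2 has 3 annotated starts close together, and the first, printed here, held 2 sites, 1 beginning 126 bases before and 1 beginning 5 bases after it. The letters stood in windows of 8.09% of all genes with a promoter entry, and among tested genes the share was 11.7% of those called higher, 9.73% of those called lower and 7.86% of those not called. These are matches of letters in the annotation, not binding measured here.

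Among the Elavl genes, Elavl3 changed most. Elavl3 was measured by 1 probe, whose log2 intensity ran from 13.35 to 13.97 with a median of 13.72 in TH-MYCN+/+ and from 11.96 to 12.30 with a median of 12.09 in wild type. Every TH-MYCN+/+ array lay above every wild-type array, with a gap larger than the spread inside either group. The mean rose from 12.13 ± 0.12 (SD, n = 7) to 13.68 ± 0.21 (SD, n = 6). This is a change by 1.55 ± 0.10 on the log2 scale (SE; limma adjusted p = 5.26e-08). Genotypes failed to overlap for 35.4% of all genes, 12.3% with TH-MYCN+/+ higher and 23.1% with it lower. Elavl3 ranked 306 of 21893 genes by p and 939 by rise.

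Elavl2 stood at 13.14 to 13.42 with a median of 13.23 in TH-MYCN+/+ and at 13.03 to 13.42 with a median of 13.23 in wild type. The groups overlapped over nearly the whole of their ranges. Its log2 fold change was 0.01 with a 95% interval of -0.14 to 0.17 (limma adjusted p = 0.893), so a change as large as that of Elavl3 lies outside this interval. The interval holds for quantile normalization only. With spike-in scaling Elavl2 gave 0.52 ± 0.24 (SE; limma adjusted p = 0.106) and as deposited 0.36 (limma adjusted p = 0.204), neither called. A second probe of Elavl2 gave 0.22 ± 0.24 (SE; adjusted p = 0.464) with a wider spread.

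Elavl4, whose protein HuD is known to bind and stabilise MYCN mRNA in human neuroblastoma cells, ran from 12.55 to 13.03 with a median of 12.85 in TH-MYCN+/+. In wild type it ran from 12.96 to 13.31 with a median of 12.97, and 6 of 7 wild-type arrays lay between 12.96 and 12.9997. The groups overlapped through TH-MYCN+/+ replicate 1 alone, the highest of its group. The log2 fold change was -0.22 ± 0.09 (SE; limma adjusted p = 0.0445), and the second Elavl4 probe gave -0.40 (adjusted p = 0.0696 over all probes). The call ended when any of 11 of the 13 arrays was left out (adjusted p up to 0.102), and the fold change turned to 0.26 with spike-in scaling and to 0.10 in the values as deposited, neither called.

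Elavl1, the HuR gene expressed in most cell types, is the closest relative outside the neuronal set. Its probe with the highest mean ran from 11.76 to 12.24 in TH-MYCN+/+ and from 10.44 to 10.99 in wild type, a log2 fold change of 1.34 ± 0.10 (SE; limma adjusted p = 3.23e-07). A second Elavl1 probe was called in the other direction, at -0.56 ± 0.11 (SE; adjusted p = 6.35e-04 over all probes), so its direction as a gene is not settled.

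Ptbp1 and Ptbp2 rose together. Ptbp1 ran from 10.99 to 11.45 with a median of 11.28 in TH-MYCN+/+ and from 10.09 to 10.56 with a median of 10.37 in wild type. Its log2 fold change was 0.92 ± 0.09 (SE; limma adjusted p = 4.32e-06), and the second Ptbp1 probe gave 0.93 ± 0.16 (SE; adjusted p = 2.28e-04 over all probes). The groups did not overlap at either probe.

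Ptbp2, with 1 probe, ran from 10.53 to 11.30 with a median of 10.95 in TH-MYCN+/+ and from 9.33 to 10.24 with a median of 9.72 in wild type. The highest wild-type array lay below the lowest TH-MYCN+/+ array. Its log2 fold change was 1.15 ± 0.16 (SE; limma adjusted p = 5.49e-05). Ptbp3, a relative of both found in blood and other cells, was called lower at its 2 probes, at -0.64 ± 0.12 (SE; limma adjusted p = 6.57e-04) for the one with the higher mean. The call for Ptbp3 ended with spike-in scaling (-0.10, adjusted p = 0.806).

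Msi2 had 1 probe and the narrowest TH-MYCN+/+ range of the 10 genes. It ran from 12.55 to 12.69 with a median of 12.60 in TH-MYCN+/+ and from 11.71 to 12.26 with a median of 11.91 in wild type. No wild-type array reached the TH-MYCN+/+ range, and the log2 fold change was 0.64 ± 0.08 (SE; limma adjusted p = 2.52e-05). Msi2 had the smallest rise of the 4, and it fell to 0.36 after median centring (adjusted p = 0.0298).

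Msi1 gave opposite answers at its probes, which the platform assigns to the same transcript. Probe A_51_P296866, whose mean over all arrays was the higher, ran from 6.63 to 7.08 with a median of 6.69 in TH-MYCN+/+ and from 6.97 to 7.85 with a median of 7.30 in wild type. There the log2 fold change was -0.59 ± 0.16 (SE; limma adjusted p = 0.00633). Probe A_55_P2062688 ran from 7.20 to 8.03 with a median of 7.35 in TH-MYCN+/+ and from 5.33 to 6.30 with a median of 5.57 in wild type.

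At that second probe the groups did not overlap, and the log2 fold change was 1.78 ± 0.18 (SE; adjusted p = 3.54e-06 over all probes). The difference between the Msi1 probes within an array shifted by 2.37 on the log2 scale between genotypes (exact permutation over 1716 splits, two-sided, p = 0.000583, the smallest the design allows). This pair was chosen after its values were seen. Of 6807 genes with several probes, 227 had probes called in both directions. With the mean of both probes Msi1 was called higher, at 0.60 (adjusted p = 0.00196). With spike-in scaling the first probe gave 0.079 (adjusted p = 0.847), so the direction of the gene is not settled, and which transcripts each probe reports was not analysed here.

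**Figure D2:**
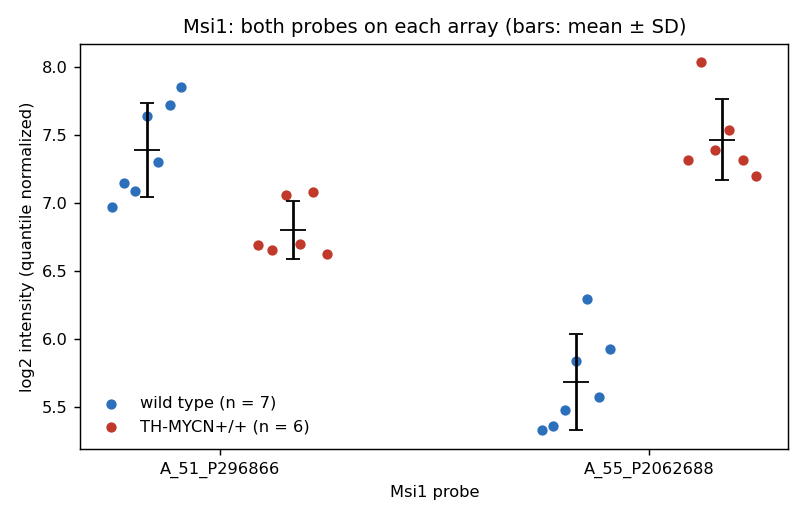
Quantile-normalized log2 intensity (vertical axis) at the 2 probes of Msi1 (horizontal axis) on every array, wild type in blue (n = 7) and TH-MYCN+/+ in red (n = 6), with bars for mean and SD. TH-MYCN+/+ values are lower at the first probe (-0.59 on the log2 scale) and higher at the second (1.78).

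Neither Rbfox gene passed at the probe that stands for it. Rbfox1, which is expressed in neurons and in muscle, ran from 13.65 to 14.001 with a median of 13.80 in TH-MYCN+/+ and from 13.68 to 13.88 with a median of 13.72 in wild type. Its log2 fold change was 0.04 with a 95% interval of -0.10 to 0.19 (limma adjusted p = 0.628), and the second probe gave 0.01 (adjusted p = 0.977). The groups overlapped almost completely. With spike-in scaling Rbfox1 gave 0.60 ± 0.24 (SE; limma adjusted p = 0.0648) and as deposited 0.44 (limma adjusted p = 0.117), neither called. Skeletal muscle markers varied between arrays from 7.49 to 16.2 in summed log2 level, with the highest in TH-MYCN+/+ replicate 6, where Rbfox1 stood at 13.80. Whether muscle RNA contributed to the Rbfox1 signal was not tested, and 1 array cannot show it.

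Rbfox3 was spread more widely in wild type, from 9.02 to 9.95 with a median of 9.73, than in TH-MYCN+/+, from 9.16 to 9.51 with a median of 9.33. Its log2 fold change was -0.27 ± 0.14 (SE) with a 95% interval of -0.57 to 0.03 (limma adjusted p = 0.123). The lowest array of all was wild type replicate 4, without which the gene was called lower (-0.37, adjusted p = 0.00944). Leaving out any other single array gave no call. The fold change turned to 0.27 with spike-in scaling (limma adjusted p = 0.463) and to 0.11 as deposited (limma adjusted p = 0.736). Of the other Rbfox3 probes, A_55_P2053372 was called lower at -0.68 ± 0.18 (SE; adjusted p = 0.00676 over all probes) and A_51_P313651 gave -0.57 ± 0.29 (SE; adjusted p = 0.123). Rbfox2, the widely expressed relative, gave 0.14 ± 0.14 (SE; limma adjusted p = 0.413).

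Nova1 did not pass. It ran from 5.65 to 6.36 with a median of 6.01 in TH-MYCN+/+ and from 5.82 to 6.67 with a median of 6.30 in wild type. The log2 fold change was -0.33 ± 0.16 (SE) with a 95% interval of -0.69 to 0.02 (limma adjusted p = 0.104), while the second probe gave 0.06 ± 0.22 (SE; adjusted p = 0.846 over all probes). Without wild type replicate 4 Nova1 was called lower (-0.42, adjusted p = 0.0328), and leaving out any other single array gave no call. The fold change turned to 0.36 with spike-in scaling (limma adjusted p = 0.355) and to 0.20 as deposited (limma adjusted p = 0.579). Nova2, its relative, gave -0.09 ± 0.14 (SE; limma adjusted p = 0.625).

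**Figure D3:**
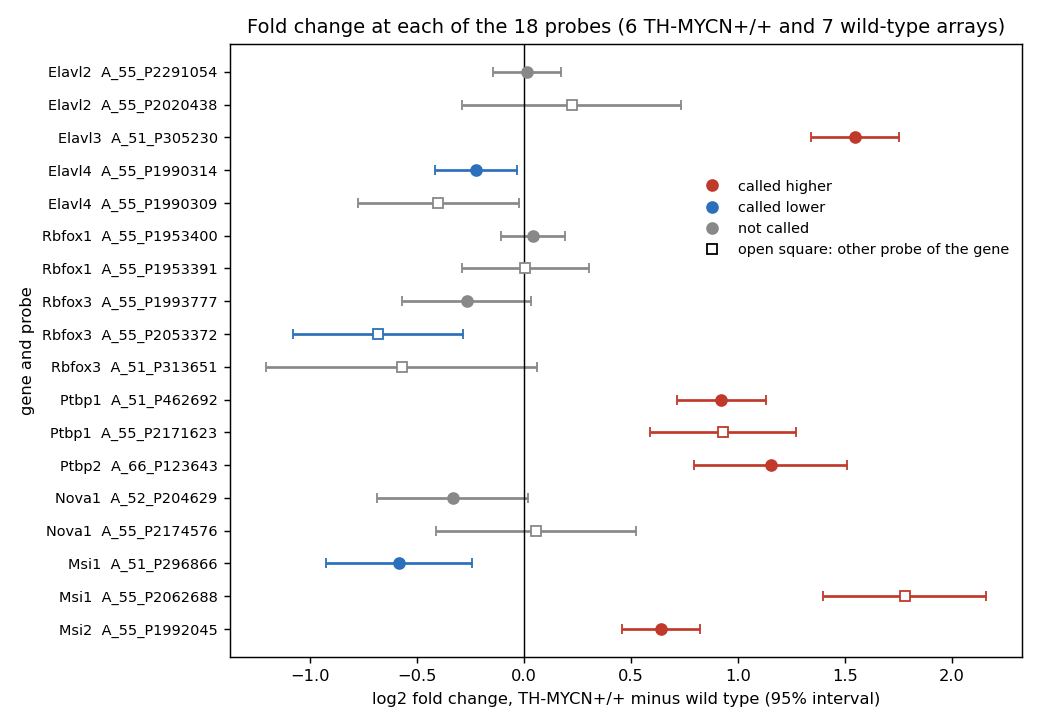
Log2 fold change, TH-MYCN+/+ minus wild type, with its 95% interval (horizontal axis) at each of the 18 probes (vertical axis), coloured by call over all probes. Circles stand for the probe with the highest mean of its gene and open squares for its other probes, and 6 probes were called higher and 3 lower.

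Over probes rather than genes, 6 of the 18 were called higher and 3 lower. Of all annotated probes 52.2% were called, 19.6% higher and 32.6% lower. The 6 were the probes of Elavl3, Ptbp2 and Msi2, both of Ptbp1 and 1 of Msi1. The 3 lower ones belonged to Elavl4, Rbfox3 and Msi1.

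How far a gene counted as changed depended on the scaling between arrays, and so did the shift of the median gene. That shift was -0.15 on the log2 scale after quantile normalization, -0.44 and -0.30 after centring on the median and on the 75th percentile, 0.14 as deposited and 0.30 after scaling to E1A spike-in probes. The share of called genes that were higher ran from 22% with median centring to 78.2% with spike-in scaling, against 35.5% with quantile normalization. Elavl3, Ptbp1, Ptbp2 and Msi2 were called higher in each of 24 alternatives. Their log2 fold changes ran from 1.31 to 2.05, from 0.66 to 1.40, from 0.90 to 1.64 and from 0.36 to 1.11. The alternatives are not independent, since 13 of them leave out 1 array each. Averaging probes cannot change the values of Elavl3, Ptbp2 and Msi2, which have 1 probe.

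Relative to the median gene the same genes shifted by 1.70 to 1.75 (Elavl3), 1.07 to 1.10 (Ptbp1), 1.30 to 1.34 (Ptbp2) and 0.79 to 0.80 (Msi2) over the 5 scalings. Apart from quantile normalization these scalings differ only by a constant on each array. Their agreement in these relative values was therefore fixed in advance and is no test of stability. Elavl4 stood at -0.07 to -0.05 relative to the median gene and Rbfox3 at -0.12 to -0.03. With spike-in scaling, where 25.9% of all genes were called higher and 7.21% lower, 4 of the 10 genes were called higher and none lower. In the values as deposited none was called lower either.

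**Figure D4:**
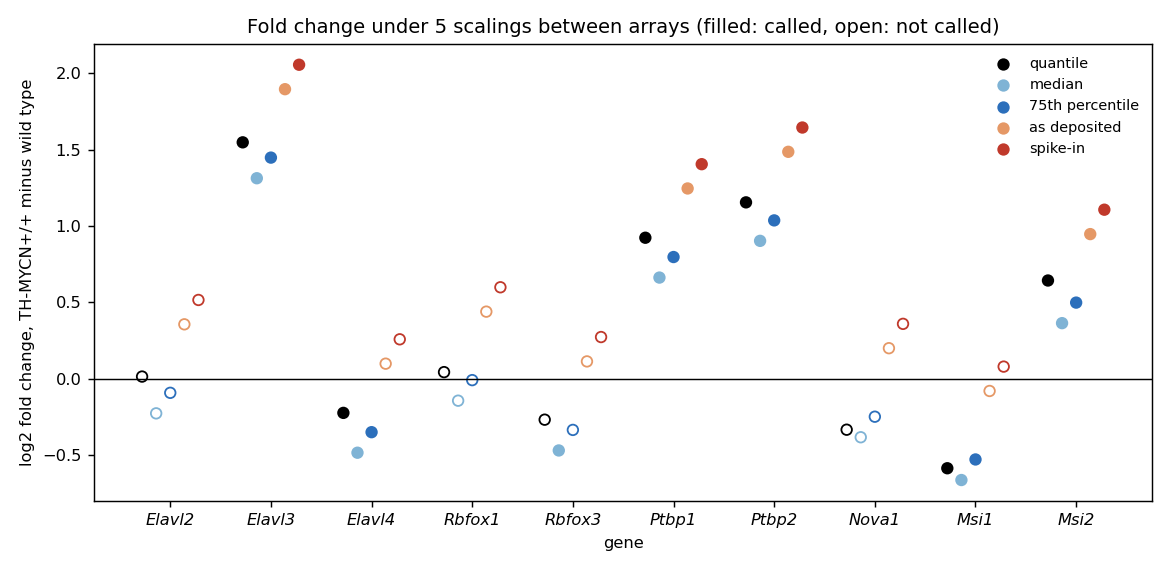
Log2 fold change, TH-MYCN+/+ minus wild type (vertical axis), of each gene (horizontal axis) under 5 scalings between arrays, filled where called at an adjusted p under 0.05. Elavl3, Ptbp1, Ptbp2 and Msi2 are filled and above 0 under each scaling, while Elavl4 changes sign and is filled under 3 of them.

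Differences between a pair of genes within an array do not depend on a constant scaling of that array. For 6 such pairs they were compared between genotypes by exact permutation, two-sided, with Benjamini-Hochberg adjustment over the 6. The pairs were chosen with earlier results of these data known. Each shift is the difference between the log2 fold changes of its genes, so it is no separate evidence for them. Elavl3 rose relative to Elavl4 by 1.77 on the log2 scale, with no overlap between genotypes (permutation p = 0.000583, adjusted p = 0.00117). Elavl4 fell relative to Elavl1 by 1.56 (permutation p = 0.000583, adjusted p = 0.00117), a value that rests on the Elavl1 probe that rose. With the mean of all probes of each gene this shift was -0.70 (permutation adjusted p = 0.00524). The shift between Ptbp1 and Ptbp2 was -0.23 (permutation p = 0.125, adjusted p = 0.125), which does not show that they rose alike.

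Elavl2 rose by 0.24 relative to Elavl4 (permutation p = 0.0105, adjusted p = 0.0157) and Rbfox1 by 0.31 relative to Rbfox3 (permutation p = 0.0355, adjusted p = 0.0427). With the mean of all probes these shifts were 0.43 and 0.53 (permutation adjusted p = 0.014 and 0.0105). The second of these lost its call when any of 10 of the 13 arrays was left out (adjusted p up to 0.0924), and the first without TH-MYCN+/+ replicate 4 (adjusted p = 0.053). Msi1 shifted by -1.23 relative to Msi2 (permutation p = 0.000583, adjusted p = 0.00117), and by -0.045 (adjusted p = 0.766) when the probes of Msi1 were averaged.

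**Figure D5:**
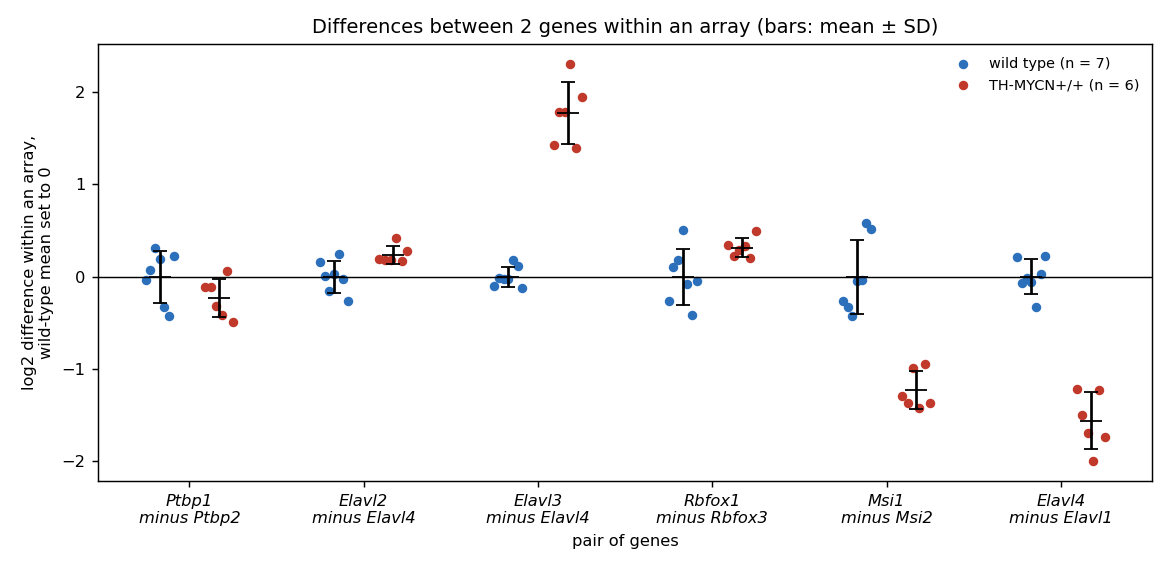
Difference of log2 intensity between 2 genes within each array (vertical axis, wild-type mean of each pair set to 0) for 6 pairs (horizontal axis), wild type in blue (n = 7) and TH-MYCN+/+ in red (n = 6), with bars for mean and SD. Genotypes do not overlap for Elavl3 minus Elavl4 (shift 1.77), Msi1 minus Msi2 (-1.23) and Elavl4 minus Elavl1 (-1.56).

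Within the TH-MYCN+/+ group, Elavl3, Ptbp1, Ptbp2 and Msi2 were each highest on replicate 4, which also held the highest proliferation level, and Elavl4 was lowest there. Pearson correlations with the summed proliferation level over the 6 arrays were 0.89 for Ptbp1, 0.81 for Ptbp2, 0.79 for Elavl3 and -0.88 for Elavl4 (exact permutation p = 0.0292, 0.0306, 0.0819 and 0.0208). Spearman correlations were 1.0, 0.83, 0.77 and -0.89 (exact permutation p = 0.00278, 0.0583, 0.103 and 0.0333). None of 20 relations, 10 genes in each genotype, passed after adjustment over the 20, with the smallest adjusted p at 0.0556 for the rank correlation of Ptbp1. For Msi2 the Pearson value was 0.83 and the Spearman value 0.54 (exact permutation p = 0.0556 and 0.297). Without the 2 arrays farthest from the median proliferation level the Pearson value was 0.98 for Ptbp1, 0.61 for Ptbp2, 0.69 for Elavl3, -0.33 for Elavl4 and -0.49 for Msi2, over 4 arrays, so that Msi2 changed sign. Among 7 wild-type arrays the Pearson values for Ptbp1, Ptbp2, Elavl3, Elavl4 and Msi2 were 0.67, 0.29, 0.19, 0.44 and -0.47 (exact permutation p = 0.0998, 0.531, 0.691, 0.315 and 0.288). The array values compared share one normalization.

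Genes with the most similar profile over the 13 arrays were found by the root mean square difference of mean-centred log2 values. Both genotypes enter, so a small difference also requires a similar log2 fold change (Elavl3 1.55, Lsm2 1.69 and Hmgb3 1.52). It does not show that genes vary together within a genotype. The candidates were 13279 genes above background on all arrays whose symbol is no clone or model name. The closest to Elavl3 were Lsm2 (0.091) and Hmgb3 (0.10), to Ptbp1 Nap1l1 (0.0835) and Nxf1 (0.0849), and to Ptbp2 Pcgf6 (0.12) and Ryk (0.13). For Msi2 they were Thra (0.0894) and Ankrd28 (0.11), for Elavl4 Wdr13 (0.079) and Nln (0.0963), and for Msi1 Tubb2b (0.14) and Erich6 (0.14). The Msi1 profile is that of probe A_51_P296866 alone. For comparison, the SD over the 13 arrays was 0.82 for Elavl3 and 0.18 for Elavl4.

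Other RNA-binding proteins moved in both directions. In 4 lists of related genes, 42 of 44 were measured, and 14 were called higher and 16 lower, with a median log2 fold change of -0.10 against -0.15 over all genes. Of all genes 18.9% were called higher and 34.3% lower. With spike-in scaling 17 of the 42 were called higher and 3 lower, against 25.9% and 7.21% of all genes. Among 18 other tissue-specific splicing regulators 6 were called higher and 8 lower. Celf1 rose 3.36-fold (log2 fold change 1.75 ± 0.13 SE), Celf5 2.65-fold and Khdrbs3, an RNA-binding protein of the Sam68 family, 2.17-fold. Of 3 Celf1 probes 2 were called higher and the third gave -0.05, while 3 of 3 Celf5 probes were called higher. Qk, the quaking gene of glia and other cells, was lower by 2.72-fold (-1.44 ± 0.16 SE, limma adjusted p = 9.54e-06) and Celf6 by 2.58-fold. At these probes both kept their calls with spike-in scaling. Of 6 Qk probes only 3 were called lower, with log2 fold changes from -1.44 to -0.10 over the 6. Of 2 Celf6 probes 2 were called lower. Srrm4, a neuronal splicing activator of microexons, gave -0.01 ± 0.11 (SE).

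Of 7 proteins that bind AU-rich elements, as the Elavl proteins do, 3 were called higher and 3 lower. Tia1 rose 4.17-fold and Hnrnpd, which promotes decay of such mRNAs, 2.84-fold (limma adjusted p = 1.48e-07 and 1.14e-07). Zfp36l1, also a decay factor, was lower by 2.71-fold and Zfp36l2 by 1.84-fold, and Tial1 rose 1.48-fold. The other Tial1 probe gave -0.10 on the log2 scale and was not called, while 3 of 3 Tia1 probes were called higher. The call for Zfp36l2 ended with spike-in scaling (-0.42, adjusted p = 0.372).

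Among 13 measured regulators of translation and localisation 4 were called higher and 4 lower. Igf2bp3, an oncofetal mRNA-binding protein, ran from 8.09 to 8.90 in TH-MYCN+/+ and from 1.76 to 4.41 in wild type, where 5 of 7 arrays were above background (log2 fold change 5.14 ± 0.42 SE, limma adjusted p = 7.57e-07). Igf2bp1 was at least 1.95-fold higher, with 5 of 6 TH-MYCN+/+ arrays and none of the wild-type arrays above background. Syncrip rose 1.67-fold. The cytoplasmic polyadenylation factors Cpeb1, Cpeb2, Cpeb3 and Cpeb4 made up the 4 lower genes, at -0.88, -0.91, -0.86 and -0.60. With spike-in scaling none of the 4 was called.

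Transcripts known to be bound by these proteins were mixed as well, with 3 of 13 called higher and 8 lower (median log2 fold change -0.51, against -0.15 over all genes). With spike-in scaling 3 were called higher and 1, Ache, lower, and the median was 0.16 against 0.30 over all genes, so 7 of the 8 lower calls ended. Bdnf, a neurotrophin whose mRNA HuD is known to bind, rose from 5.34 ± 0.22 (SD, n = 7) to 10.33 ± 0.36 (SD, n = 6), with a log2 fold change of 4.99 ± 0.16 (SE; limma adjusted p = 2.68e-10). Dcx, doublecortin of migrating neuroblasts, rose 5.37-fold and Neurod1 was at least 15.1-fold higher. Ache was lower by 3.20-fold and Gabbr1, whose exons Ptbp1 is known to control, by 1.76-fold (-0.82 ± 0.10 SE, limma adjusted p = 1.09e-05), with 3 of 3 Gabbr1 probes called lower. Dlg4, the PSD-95 gene that Ptbp1 and Ptbp2 repress through an unstable spliced form, gave -0.56 ± 0.15 (SE; adjusted p = 0.00699), and Numb gave -0.65 ± 0.16 (SE; adjusted p = 0.0038). With spike-in scaling the values were -0.36 for Gabbr1, -0.0098 for Dlg4 and 0.026 for Numb (adjusted p = 0.28, 0.98 and 0.947). Dlg4 and Numb were picked after their values were seen.

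Rest, the repressor of neuronal genes in non-neuronal cells and progenitors, ran from 5.41 to 6.46 in TH-MYCN+/+ and from 7.33 to 7.97 in wild type. Its log2 fold change was -1.57 ± 0.16 (SE; limma adjusted p = 5.15e-06), and both probes were called lower. Its cofactor Rcor1 rose 1.63-fold, while the other Rcor1 probe gave 0.05 on the log2 scale and was not called. Of the small phosphatases that act with Rest, Ctdsp1 rose 1.47-fold and Ctdspl 1.14-fold, and Ctdsp2 gave -0.02 ± 0.11 (SE). The other Ctdspl probe gave -0.14 on the log2 scale and was not called. These arrays report transcript abundance at a probe and carry no measure of exon inclusion, binding or protein.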

How the data were processed

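The deposited table held 1 value for each of 55821 probes on 13 arrays, with 140 control probes among them. Its log2 intensities are as deposited by the authors. The base is inferred from the values, which reach 18.1 to 18.6 on each array, and every fold change rests on it. Array medians ran from 4.58 to 5.07 in TH-MYCN+/+ and from 3.94 to 4.50 in wild type, without overlap. Quantile normalization and median centring remove this difference between genotypes, and its cause was not tested. The background correction of the scanner signal was not given in the sources used here. Symbols came from the platform annotation: 30626 array probes carried 1 symbol and 25055 none.

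Array probes were quantile normalized and each gene was represented by its probe of highest mean. Genotypes were compared two-sided in limma 3.58.1 (R 4.3.3; lmFit and eBayes) without an intensity filter. On each array, background was set at the 95th percentile over 96 ERCC probes, which assumes that no ERCC RNA was added. Spike-in scaling used the mean of 7 of 10 E1A probes, which assumes that each array received the same amount of E1A RNA. That mean ran from 11.29 to 12.77 over the arrays. The standard error of Elavl2 was 0.24 with spike-in scaling and 0.07 with quantile normalization, so a call can also end through a wider spread. Pair differences and correlations used exact permutation (Python 3.11.15, numpy 2.4.6), except that pair differences with the replicate block used a linear model t test. The number of arrays limits the precision. Between 56.3% and 63.0% of probes on an array were above background. The fit was tested on simulated data.

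Genes were named by rule: all 10 members with their probes, up to 5 genes with the smallest p of each related list, and the 2 nearest profiles of each called member. Srrm4, Cpeb2 and Cpeb4 are named outside it, as are Dlg4 and Numb. A lower bound sets the mean of the brighter genotype against the dimmer one, each of whose values is raised to the lowest signal above background on its array. The members, lists and pairs were chosen with earlier results of these data known. Alternatives were other scalings, a filter on dim genes, the mean of all probes, other variance models, the replicate block and leaving out arrays.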

Additional observations from a re-analysis of the deposited data

Results flagged for a closer look

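Arrays that stood apart from the rest of their genotype were sought by the gap to the nearest array over the range of the group, for each gene, each further probe and each pair difference, in 48 groups of values. Chance marks about 1 in 20 such groups, and 4 were marked. Elavl4 on wild type replicate 7 was 13.31, while the next array stood at 12.9997. Without that array the Elavl4 fold change was -0.18 on the log2 scale and was not called (adjusted p = 0.0768). Elavl2 on TH-MYCN+/+ replicate 1 was 13.42, with the next at 13.24. The second Elavl2 probe, A_55_P2020438, was 10.87 on TH-MYCN+/+ replicate 6, with the next at 11.40. The Rbfox3 probe A_51_P313651 was 4.65 on TH-MYCN+/+ replicate 6, with the next at 4.98.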

How the results depend on the processing

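Elavl3, Ptbp1, Ptbp2 and Msi2 were called higher under all 24 alternatives, and Elavl2 and Rbfox1 under none. These alternatives share most of their arrays. The calls of lower genes depended on the scaling. With spike-in scaling 7254 genes were called, 0 members and 0 member probes were called lower, and 3 other RNA-binding genes were. In the values as deposited those counts were 0, 0 and 5, while median centring gave 5 member probes called lower. Elavl4 reversed to 0.26 with spike-in scaling and to 0.10 as deposited, and Msi1 to 0.079 with spike-in scaling, to 0.60 with the mean of its probes and to 1.78 at its other probe, which left 1 member called lower. With the mean of probes the Msi1 minus Msi2 shift was -0.045. Rbfox3 was called lower with median centring (-0.47) and with the mean of its probes (-0.51). It stood at 0.27 with spike-in scaling and at 0.11 as deposited, neither called. The cause of these differences was not tested. With the replicate number as a block, which leaves out wild type replicate 7, 1 member was called lower. There pair differences were tested by the t test of a linear model instead of permutation. The shifts of Elavl2 minus Elavl4 (0.19, t test adjusted p = 0.0731) and of Rbfox1 minus Rbfox3 (0.30, t test adjusted p = 0.136) lost their calls. The block, the array left out and the other test cannot be told apart here. Same-numbered arrays of the genotypes did not deviate together (correlations of -0.13 to 0.05 over 6 pairs, 0 of 6 highest with the own number), so the numbers were not taken as pairs. An alternative chosen after seeing the data left out TH-MYCN+/+ replicate 6 and wild type replicates 1 and 3, the highest in skeletal muscle, adrenal cortex and lymphoid markers. There 1 member was called lower, and the same shifts were 0.23 (permutation adjusted p = 0.0595) and 0.26 (permutation adjusted p = 0.143). When single arrays were left out, 10944 to 11787 genes and 1 to 3 members called lower resulted, and the shifts ran from 0.20 to 0.28 and from 0.24 to 0.40. The number of arrays and the signal over background limit what can be resolved.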

Other observations

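Host transcripts of microRNAs that act with these proteins were looked up after the other values were seen. Mir124-2hg, host of a copy of miR-124, which represses Ptbp1 in neurons, was below background on all 13 arrays at the probe with the higher mean, so no change can be given. Mir9-3hg, host of a copy of miR-9, was above background on all 6 TH-MYCN+/+ arrays and on none of the 7 wild-type arrays, at least 9.03-fold higher (limma adjusted p = 7.83e-10). Mature microRNAs were not measured.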
